A study of Mus musculus with 6 samples.

Results

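The lipid droplet genes described here encode the 5 perilipins that coat the droplet surface (Plin1, Plin2, Plin3, Plin4 and Plin5), the droplet fusion protein Cidec, the lipases Pnpla2, Lipe and Mgll, and Abhd5, the activator of Pnpla2. They were taken by symbol from a list of names, and all 10 were found among the 24016 gene rows of the deposited table whose symbols were intact. Each stood on a single row, and all 10 passed the minimum set for testing, a mean of 0.5 FPKM (fragments per kilobase of transcript and megafragment mapped). The libraries were polyA RNA from brown adipose tissue of C57BL6 mice, 3 labelled AdIl17rc KO and 3 labelled WT. The series title places IL-17RC, a subunit of the receptor for interleukin 17, in adipocytes. The labels used here give no driver of the deletion, no age and no sex. Nor do they tie each library to an animal of its own, so the p-values describe the spread between 3 libraries a group, which may be technical.

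Brown adipocytes store triglyceride in many small droplets and burn the fatty acids released from them to make heat. Release runs in steps. Pnpla2, also called ATGL, removes the initial fatty acid from triglyceride, Lipe, or hormone-sensitive lipase, acts on diglyceride, and Mgll cleaves monoglyceride. Perilipin 1 holds Abhd5 at the droplet surface in resting fat cells and gives it up when protein kinase A phosphorylates the coat, after which Abhd5 activates Pnpla2.

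Promoter windows show the sequence context of the most abundant coat gene (Plin2), of the pair of members whose library patterns lay closest (Plin1 and Plin5) and of the initial lipase and its activator (Pnpla2 and Abhd5). Each runs 5′ to 3′ on the gene's own strand over 300 bases, from RefSeq on mouse build GRCm38.p6, which is not the mm9 build named for the deposited files. Plin2 lies at chr4:86670010-86670309 (minus strand), Plin1 at chr7:79732727-79733026 (minus), Plin5 at chr17:56117499-56117798 (minus, the upstream of 2 annotated windows), Pnpla2 at chr7:141454938-141455237 (plus) and Abhd5 at chr9:122351366-122351665 (plus). Capitals mark matches to any of 7 motifs on either strand.
Plin2: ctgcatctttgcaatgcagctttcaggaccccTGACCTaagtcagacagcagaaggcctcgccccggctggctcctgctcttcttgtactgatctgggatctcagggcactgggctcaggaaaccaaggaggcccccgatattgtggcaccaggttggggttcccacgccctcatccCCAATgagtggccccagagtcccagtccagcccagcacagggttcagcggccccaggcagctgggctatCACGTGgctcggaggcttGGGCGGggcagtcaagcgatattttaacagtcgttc
Plin1: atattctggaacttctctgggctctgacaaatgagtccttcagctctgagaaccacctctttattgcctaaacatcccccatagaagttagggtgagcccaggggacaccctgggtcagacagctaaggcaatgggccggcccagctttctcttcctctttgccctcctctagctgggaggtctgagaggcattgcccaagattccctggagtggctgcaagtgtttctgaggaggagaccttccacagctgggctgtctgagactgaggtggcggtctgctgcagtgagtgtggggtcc
Plin5: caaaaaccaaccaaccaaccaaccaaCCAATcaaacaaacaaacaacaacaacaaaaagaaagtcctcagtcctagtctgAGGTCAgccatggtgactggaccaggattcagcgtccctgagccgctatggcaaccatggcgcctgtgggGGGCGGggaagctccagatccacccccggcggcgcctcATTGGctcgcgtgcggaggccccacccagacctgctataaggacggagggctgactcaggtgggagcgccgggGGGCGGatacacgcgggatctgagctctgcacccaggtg
Pnpla2: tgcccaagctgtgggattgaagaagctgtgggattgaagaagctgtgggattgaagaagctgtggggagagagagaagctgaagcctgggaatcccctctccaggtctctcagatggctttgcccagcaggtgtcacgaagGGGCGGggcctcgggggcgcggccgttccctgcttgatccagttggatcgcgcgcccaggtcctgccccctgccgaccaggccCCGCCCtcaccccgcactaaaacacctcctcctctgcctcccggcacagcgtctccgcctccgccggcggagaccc
Abhd5: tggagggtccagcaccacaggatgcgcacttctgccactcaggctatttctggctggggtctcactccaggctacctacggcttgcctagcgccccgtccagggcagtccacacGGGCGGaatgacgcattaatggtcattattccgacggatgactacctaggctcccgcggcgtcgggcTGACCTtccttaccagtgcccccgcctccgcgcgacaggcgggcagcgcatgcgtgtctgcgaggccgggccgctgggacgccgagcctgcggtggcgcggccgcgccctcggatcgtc

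The motifs searched were the nuclear receptor half-site AGGTCA, the GC box GGGCGG, the CCAAT box, the TATA box TATAAA, the E-box CACGTG, the forkhead element GTAAACA and the cAMP response element TGACGTCA. All 10 members matched the RefSeq table, with 14 windows. The half-site was in 4 of these 14 windows (Plin2, Plin5 and Abhd5), against 16.3% of all 32851 windows. The GC box was in 9 of the 14, from 7 genes, against 35.7% of all windows, and the CCAAT box in 4 of the 14 (Plin2, Plin3, Plin4 and Plin5), against 37.4%. The E-box was in 3 of the 14 (Plin2, Lipe and Mgll; 7.15% of all windows) and the forkhead element in 2 (Lipe and Mgll; 3.65%). No member window held the TATA box (13.6%) or the cAMP response element (1.79%) in these letters. Among the matches within a window, only neighbouring GC boxes of Plin3 and of Lipe overlapped each other. The windows of Plin5 overlap each other in part, as do those of Mgll, and the same GC box lies in both Plin5 windows. Plin4 and Plin5 are neighbours on chromosome 17, 1648 bases apart in this annotation, and Plin3 lies 161.4 kilobases beyond Plin5.

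The value of 1 fragment was read from low features within a range set beforehand, which bounds the depth that can result. It put the depth at roughly 31.7 to 36.4 megafragments for the knockout libraries and 33.4 to 38.9 megafragments for the WT libraries. The targeted gene, Il17rc, had 1.32, 0.619 and 0.530 FPKM in the 3 knockout libraries and 3.21, 2.28 and 2.02 FPKM in the WT libraries, lower in all 3 knockout libraries. Adipoq, a defining fat-cell gene, was at 595 ± 59.4 FPKM in knockout and 598 ± 35.1 FPKM in WT (SD, n = 3 each), and Ucp1, the brown-fat uncoupling protein, at 2723 ± 229.9 FPKM in knockout and 2256 ± 303 FPKM in WT. Libraries differed in skeletal muscle markers. The 14 of these, all of them tested and higher on average in knockout, summed to 354, 615 and 11.0 FPKM in knockout libraries 1, 2 and 3 and to 9.31, 13.4 and 53.0 FPKM in WT libraries 1, 2 and 3. Endothelial markers, all 8 with a lower knockout mean, summed to 192, 121 and 122 FPKM in the knockout libraries and 321, 184 and 208.5 FPKM in the WT libraries. The 6 fibroblast markers, 5 with a lower knockout mean, summed to 75.9, 74.0 and 61.2 FPKM in knockout and 86.8, 100.4 and 150.1 FPKM in WT. The part of these markers in the results was not tested. Values of most genes were lower in knockout, with a median log2 fold change of -0.29 over the 10864 tested genes and 87.6% of them negative. Differences relative to the median gene are therefore given as well, from the same limma fit after median-of-ratios scaling, and are called scaled. After scaling, the values of Adipoq and Ucp1 were higher in knockout without overlap, with a log2 fold change of 0.32 ± 0.15 for Adipoq and 0.61 ± 0.096 for Ucp1 (SE, n = 3 each; limma adjusted p = 0.300 and 0.177). With a further correction for GC content and length it was 0.14 for Adipoq and 0.44 for Ucp1. The scaled sums of 10 pan-adipocyte markers were 4351, 4437 and 4831 FPKM in knockout and 2999, 3653 and 3885 FPKM in WT. Those of 10 brown adipocyte markers were 7344, 7481 and 7361 FPKM in knockout and 4641, 6204 and 5335 FPKM in WT. As deposited both sums overlapped between the groups. They were 4366, 3767 and 4041 FPKM in knockout and 3988, 3727 and 4081 FPKM in WT for pan-adipocyte markers. For brown adipocyte markers they were 7369, 6352 and 6157 FPKM against 6170, 6330 and 5604 FPKM. A lower knockout mean as deposited was found for 7 of the 10 pan-adipocyte and 5 of the 10 brown adipocyte markers. Ucp1 alone held 2969, 3129 and 3029 FPKM of the scaled brown adipocyte sums in knockout and 1938, 2170 and 1881 FPKM in WT. Scaled endothelial sums were 192, 142 and 146 FPKM in knockout and 241, 181 and 199 FPKM in WT, with overlap. Scaled fibroblast sums, 75.6, 87.1 and 73.2 FPKM in knockout and 65.3, 98.4 and 142.9 FPKM in WT, overlapped as well. The scaling factors were 1.003, 0.849 and 0.836 for the knockout libraries and 1.33, 1.02 and 1.05 for the WT libraries.

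The droplet genes made up a ladder of levels on the FPKM scale, which is per length. Plin2 was the most abundant, followed by Pnpla2 and Cidec, in both genotypes and with ranges that did not overlap their neighbours. Plin1, Plin4 and Lipe formed the next rungs, with ranges that overlapped in both genotypes. Mgll and Abhd5 overlapped as well, and Plin5 and then Plin3 were lowest, each apart from its neighbours. Fewer cells of a type and less RNA per cell cannot be told apart in such tissue RNA. Counting error was small at these levels if the rough depth holds. With that depth and the longest annotated transcript as length, the lowest value, Plin3 in knockout library 3, corresponded to roughly 494 fragments.

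**Figure D1:**
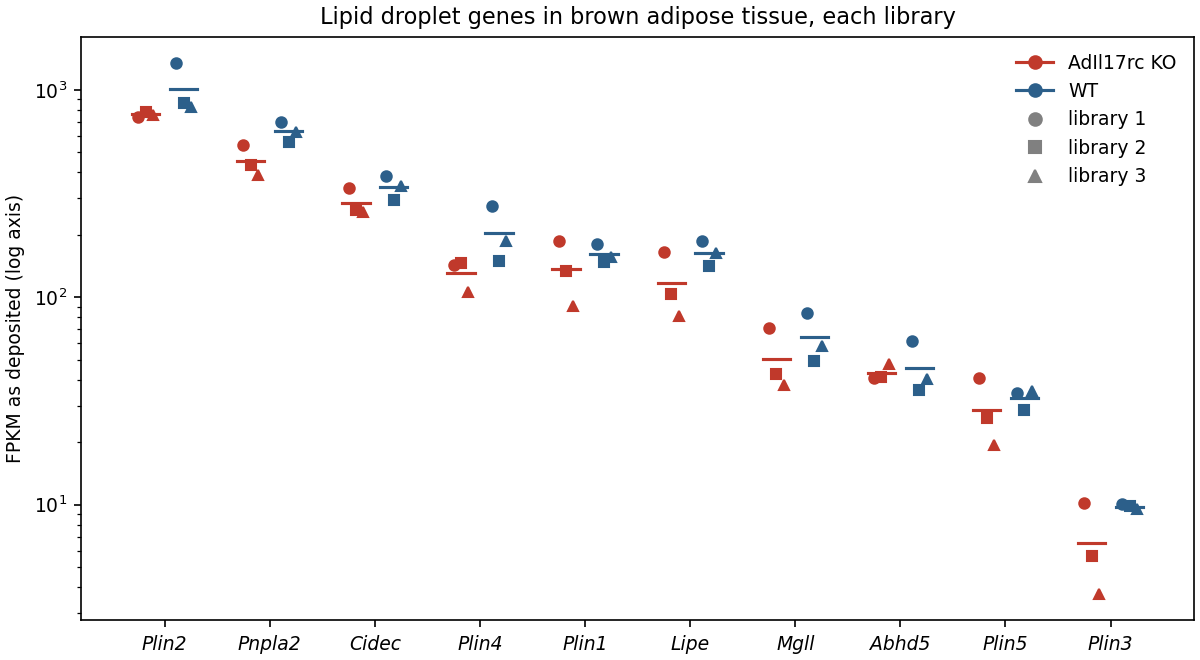
FPKM as deposited (log axis) of the 10 lipid droplet genes in each AdIl17rc KO (red, left) and WT (blue, right) library, with the symbol giving the library number and bars the group means. Plin2 lies highest and Plin3 lowest in both groups, and the knockout libraries spread widely for Plin1, Lipe, Plin5 and Plin3.

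No lipid droplet gene passed the test between genotypes. Of the 10 members, 0 were called by limma at an adjusted p under 0.05 as deposited and 0 after scaling, where 0.0184% of all tested genes were called in either fit. Without adjustment 2 members (Plin4 and Pnpla2) were lower at a limma p under 0.05 as deposited, against 24.8% of all tested genes, and 0 were higher (1.01%). In the scaled fit 0 passed in either direction (8.61% of all tested genes lower, 9.05% higher). All 10 log2 fold changes were negative as deposited, with a median of -0.37, where 87.6% of all tested genes were negative, with a median of -0.29. After scaling 6 were negative and 4 positive, with a median of -0.038, and of all tested genes 50.4% were negative and 49.6% positive. The groups did not overlap, with knockout lower, for Plin2, Plin4 and Pnpla2 as deposited, where this held for 31.7% of tested genes, and 0 members were higher without overlap (1.25%). After scaling they overlapped for all 10, while 12.5% of tested genes were lower and 12.9% higher without overlap.

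**Figure D2:**
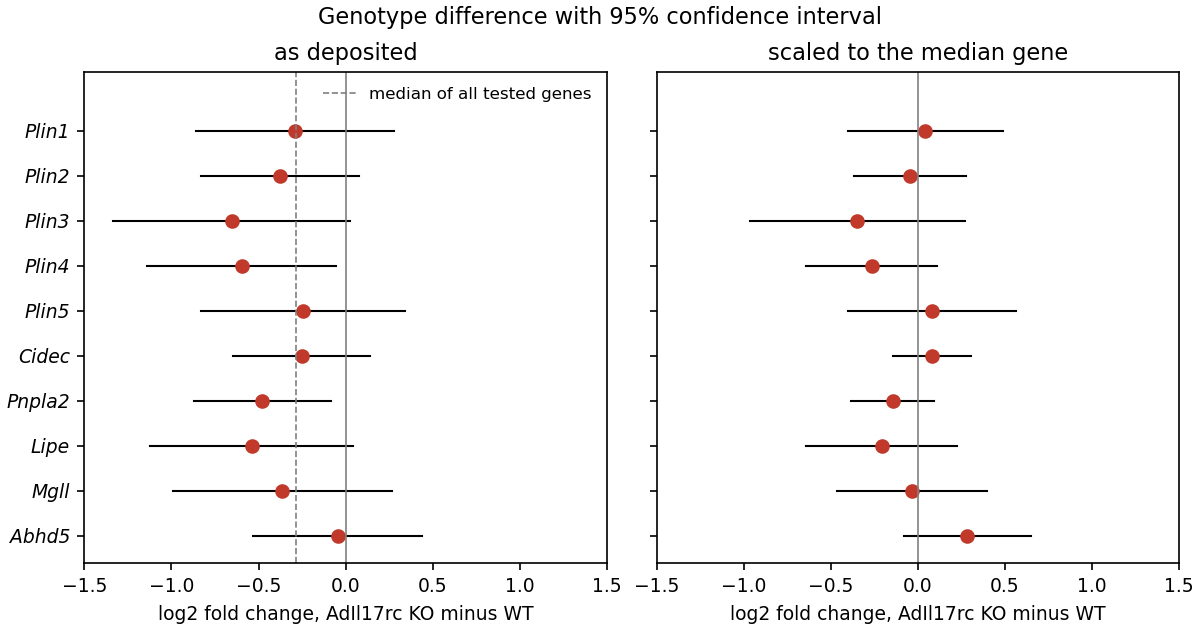
Log2 fold change, AdIl17rc KO minus WT, of each lipid droplet gene as deposited (left) and scaled to the median gene (right), with 95% confidence intervals from limma (n = 3 each). The dashed line at left marks the median of all tested genes, -0.29, and 8 of 10 intervals as deposited and all 10 scaled intervals include 0.

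Among the coat genes, Plin2, the perilipin of small and growing droplets, had 739.8, 785 and 759 FPKM in the knockout libraries and 1343, 868.1 and 826 FPKM in the WT libraries, always in the order of libraries 1, 2 and 3. All knockout values lay below all WT values, and WT library 1 stood well above the rest. The mean was 761 ± 22.6 FPKM in knockout and 1012 ± 287 FPKM in WT (SD, n = 3 each). The log2 fold change was -0.38 ± 0.20 (SE; limma adjusted p = 0.238). Scaled, it was -0.043 ± 0.14, with a 95% interval from -0.36 to 0.28 and groups that overlapped.

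Plin1, the main coat protein of fat cells and the gatekeeper of lipolysis, was at 187, 134 and 91.0 FPKM in the knockout libraries and 180.5, 148 and 156 FPKM in the WT libraries. Knockout library 1 was the highest of all 6 and knockout library 3 the lowest, so the WT range lay within that of the knockout. The log2 fold change was -0.29 ± 0.25 (SE, n = 3 each; limma adjusted p = 0.425) and 0.043 ± 0.19 scaled. Plin5, which ties droplets to mitochondria in oxidative tissues, was at 40.7, 26.2 and 19.3 FPKM in the knockout libraries and 34.4, 28.5 and 35.2 FPKM in the WT libraries. Again the first knockout library was highest and the last lowest. Its log2 fold change was -0.24 ± 0.26 (limma adjusted p = 0.509) and 0.083 ± 0.21 scaled.

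Plin4, a perilipin of nascent droplets in fat cells, was at 143, 145 and 106 FPKM in the knockout libraries and 274, 150.3 and 186 FPKM in the WT libraries. All knockout values lay below all WT values, though WT library 2 exceeded the highest knockout library by little. The log2 fold change was -0.60 ± 0.24 (SE, n = 3 each; limma adjusted p = 0.177) and -0.27 ± 0.16 scaled, and it was -0.033 after a further correction for GC content and length. Plin3, a widely expressed perilipin that moves between cytosol and droplet, was at 10.2, 5.67 and 3.72 FPKM in the knockout libraries and 10.03, 9.82 and 9.50 FPKM in the WT libraries. The WT libraries were nearly equal, while the knockout libraries differed by 2.74-fold and the highest of them exceeded every WT library. The log2 fold change was -0.66 ± 0.30 (limma adjusted p = 0.2003), the lowest of the 10, and -0.35 ± 0.26 scaled. Without knockout library 3 it was -0.34 (-0.073 scaled), above the -0.45 of Plin4, and without knockout library 1 it was -1.01 (-0.63 scaled).

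Cidec, known as FSP27, drives lipid transfer between touching droplets. It was at 335, 265 and 257 FPKM in the knockout libraries and 384, 293 and 342 FPKM in the WT libraries, with overlapping groups. The log2 fold change was -0.25 ± 0.17 (SE, n = 3 each; limma adjusted p = 0.328). Its scaled value of 0.081 ± 0.095 had the narrowest interval of the 10, from -0.14 to 0.30.

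Of the lipases, Pnpla2 was at 544, 435 and 387 FPKM in the knockout libraries and 702, 562 and 627 FPKM in the WT libraries. All knockout values lay below all WT values. The mean was 455 ± 80.6 FPKM in knockout and 630.4 ± 70.2 FPKM in WT (SD, n = 3 each). The log2 fold change was -0.48 ± 0.17 (SE; limma adjusted p = 0.165), the smallest adjusted p of the 10. Scaled, it was -0.14 ± 0.10, with an interval from -0.38 to 0.094 and overlapping groups. It was -0.033 with GC and length correction and -0.082 without knockout library 3. Lipe was at 165, 104 and 81.3 FPKM in the knockout libraries and 187, 141 and 163 FPKM in the WT libraries. Knockout libraries 2 and 3 lay below every WT library and knockout library 1 above 2 of them. Its log2 fold change was -0.54 ± 0.26 (limma adjusted p = 0.211) and -0.21 ± 0.19 scaled. The scaled value was -0.040 with GC and length correction and -0.025 without knockout library 3, against -0.40 without knockout library 1. Mgll was at 70.7, 42.4 and 37.7 FPKM in the knockout libraries and 83.8, 49.5 and 58.5 FPKM in the WT libraries, with overlapping groups. Its log2 fold change was -0.36 ± 0.28 (limma adjusted p = 0.37), and the scaled value, -0.033 ± 0.18, turned to 0.14 with GC and length correction.

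Abhd5, also called CGI-58, was at 40.9, 41.3 and 47.5 FPKM in the knockout libraries and 61.3, 35.9 and 40.1 FPKM in the WT libraries. WT library 1 was the highest of the 6 and the knockout libraries lay among the WT values. Its log2 fold change was -0.044 ± 0.21 (SE, n = 3 each; limma adjusted p = 0.887), the one nearest to 0 as deposited. Scaled, it was 0.29 ± 0.15, the highest of the 10, with a limma adjusted p of 0.36, an interval from -0.077 to 0.65 and overlapping groups.

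Ratios within a library do not depend on scaling between libraries. Plin2 made up 66.0%, 71.6% and 77.5% of the summed perilipin FPKM in knockout libraries 1, 2 and 3 and 72.9%, 72.1% and 68.1% in WT libraries 1, 2 and 3. Plin4 held 12.8%, 13.3% and 10.8% in knockout and 14.9%, 12.5% and 15.3% in WT. The share of Plin1 was 12.7% ± 3.71 in knockout and 11.6% ± 1.62 in WT, that of Plin5 2.66% ± 0.863 and 2.38% ± 0.515, and that of Plin3 0.602% ± 0.275 and 0.715% ± 0.148 (SD, n = 3 each). Every share overlapped between the groups, with exact two-sided permutation p from 0.3 (Plin4) to 1 over the 5 shares, and all were 1 after Benjamini-Hochberg adjustment. The smallest p that 3 against 3 allows is 0.1. The share of Plin4 differed by -1.95 percentage points, more than the SD of either group, and the other 4 by less than the larger SD. The SD was larger in knockout for every perilipin but Plin4.

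**Figure D3:**
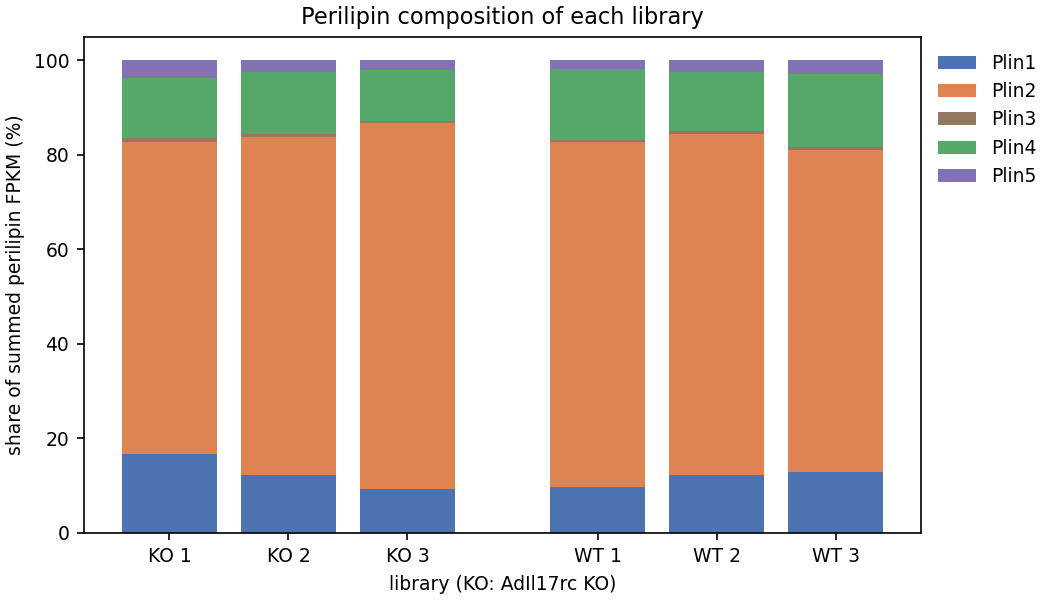
Share (%) of each perilipin gene in the summed perilipin FPKM of each AdIl17rc KO (left 3) and WT (right 3) library. Plin2 is the largest part everywhere, from 66.0% in knockout library 1 to 77.5% in knockout library 3.

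The ratio of Abhd5 to Pnpla2, the activator to its enzyme, was 0.0752, 0.0950 and 0.123 in knockout libraries 1, 2 and 3 and 0.0872, 0.0638 and 0.0640 in WT libraries 1, 2 and 3. The mean was 1.35-fold higher in knockout on the log scale, but WT library 1 lay above knockout library 1, and the exact permutation p was 0.2. This was the smallest p of 10 ratios, all of which overlapped between the groups and had an adjusted p of 1. GC content and length can still act on such a ratio. With correction for both, the log2 fold change was 0.21 for Abhd5 and -0.033 for Pnpla2, closer together than the scaled 0.29 and -0.14. The ratio of G0s2, an inhibitor of Pnpla2, to the lipase was 0.149, 0.112 and 0.0626 in knockout and 0.0778, 0.0619 and 0.108 in WT, with no order between the groups (exact p = 0.4). Lipe stood to Pnpla2 as 0.251 ± 0.0480 in knockout and 0.259 ± 0.00769 in WT (SD, n = 3 each), and Cidec to its relative Cidea as 0.387 ± 0.0146 and 0.385 ± 0.0424. The steadiest ratio across the knockout libraries other than that of Cidec to Cidea was Plin5 to Plin1, 0.209 ± 0.0113 in knockout and 0.203 ± 0.0196 in WT.

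**Figure D4:**
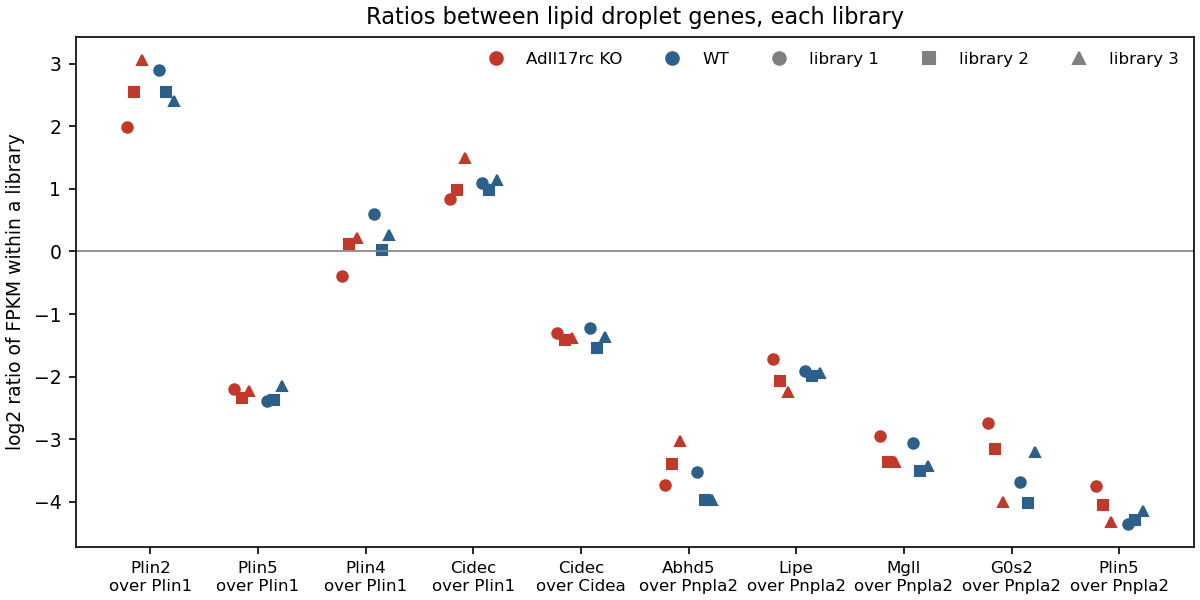
Log2 ratio of FPKM between pairs of genes within each library, AdIl17rc KO in red and WT in blue, with the symbol giving the library number. The groups overlap for all 10 ratios, and Abhd5 over Pnpla2 shows the largest difference of group means, 0.43.

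Within the knockout group several members shared an order of libraries. Knockout library 1 held the highest knockout value of 7 members and knockout library 3 the lowest of 8, in both cases as deposited and scaled. The WT libraries showed a shared order as deposited too, with library 1 highest for 9 members and library 2 lowest for 8. Scaled, WT library 3 was highest for 5 members and WT library 2 lowest for 5. The share of all tested genes with these orders was not counted, so neither order can be called particular to the members. The scaled values of the knockout libraries spanned 1.71-fold for Plin1, 1.76-fold for Plin5, 1.70-fold for Lipe, 1.56-fold for Mgll and 2.29-fold for Plin3, against 1.09-fold, 1.29-fold, 1.12-fold, 1.30-fold and 1.28-fold in the WT libraries. Abhd5 ran the other way, from 40.8 scaled FPKM in knockout library 1 to 56.8 in knockout library 3. Cidec stayed within 1.09-fold in knockout and 1.14-fold in WT. For the rest, too, scaled spans were similar in the 2 groups. In knockout and WT they were 1.25-fold and 1.28-fold for Plin2 and 1.35-fold and 1.40-fold for Plin4. For Pnpla2 they were 1.17-fold and 1.13-fold, and for Abhd5 1.39-fold and 1.31-fold. With GC and length correction the spans were 1.45-fold in knockout and 1.20-fold in WT for Plin1, 1.47-fold and 1.20-fold for Lipe and 2.18-fold and 1.35-fold for Plin3. For Plin5 they were then nearly equal, 1.43-fold in knockout and 1.41-fold in WT, and for Pnpla2 narrower in knockout, 1.07-fold against 1.23-fold. Corrected spans in knockout and WT were 1.36-fold and 1.21-fold for Mgll, 1.33-fold and 1.27-fold for Plin2 and 1.28-fold and 1.31-fold for Plin4. They were 1.07-fold and 1.18-fold for Cidec and 1.26-fold and 1.35-fold for Abhd5. GC content was 56.9% for the Plin1 transcript, 58.9% for Plin5, 55.6% for Lipe, 57.0% for Pnpla2 and 56.5% for Cidec. It was 55.9% for Plin4, 55.3% for Mgll, 52.1% for Plin2, 51.1% for Plin3 and 45.7% for Abhd5. Muscle markers summed to 11.0 FPKM in knockout library 3, the lowest knockout library for 8 of 10 members, against 354 and 615 FPKM in knockout libraries 1 and 2. The part of muscle RNA and of GC content in these spans was not tested.

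**Figure D5:**
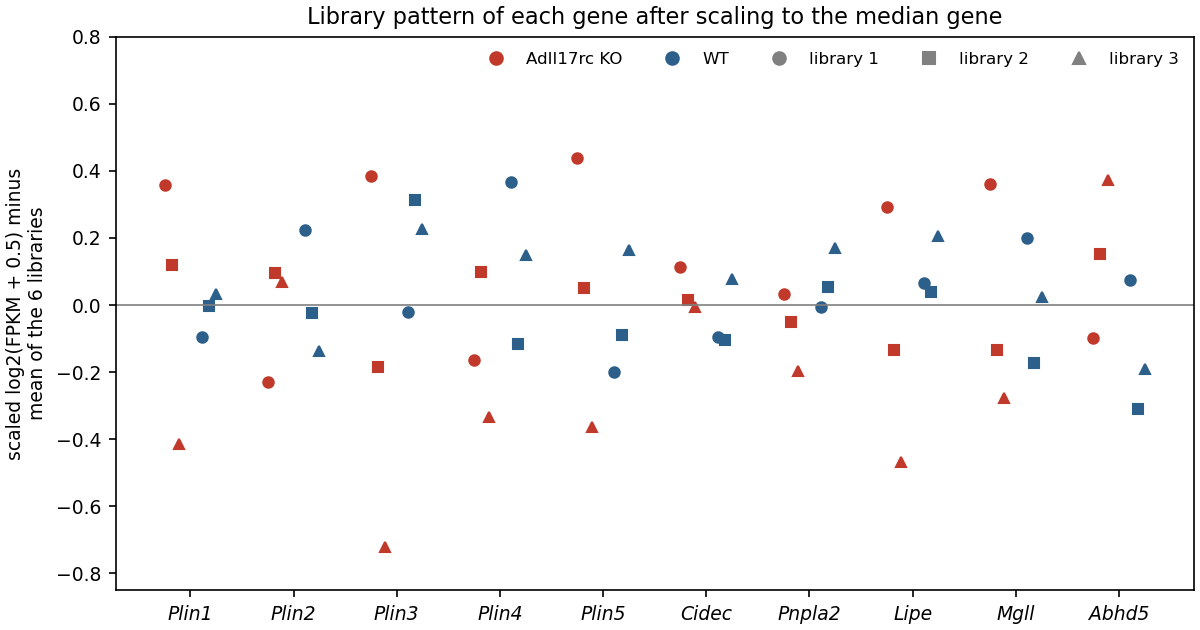
Scaled log2(FPKM + 0.5) of each lipid droplet gene in each library, minus the mean of the 6 libraries, AdIl17rc KO in red (left) and WT in blue (right), with the symbol giving the library number. Plin1, Plin3, Plin5, Lipe and Mgll are highest in knockout library 1 and lowest in knockout library 3, and Abhd5 shows the opposite order among the knockout libraries.

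Likeness of pattern was measured as the root mean square difference of these centred values over the 6 libraries. Plin1 and Plin5 were each other's nearest member, at 0.091 log2 units, and of 5559 other genes with a mean of at least 5 FPKM 12 lay closer to Plin1 and 5 closer to Plin5. For the other members more genes lay closer than the nearest member. The counts were 30 (0.54%) for Plin3, 234 (4.21%) for Mgll, 236 (4.25%) for Lipe and 689 (12.4%) for Pnpla2. They were 825 (14.8%) for Plin4, 1028 (18.5%) for Cidec, 1081 (19.4%) for Abhd5 and 1745 (31.4%) for Plin2. The nearest of these genes was Khk, the fructose-metabolising ketohexokinase, for Plin1 (0.040), and 1110058L19Rik for Plin5 (0.053). Abhd5 was the farthest member from Plin1, Plin3, Plin5, Pnpla2, Lipe and Mgll, and its own nearest gene was Timm9, a chaperone of mitochondrial import (0.044). Nearest to Pnpla2 was Fto (0.027), to Lipe Rpa1 (0.036), to Mgll Gstt2 (0.022), to Cidec Lman2 (0.024), to Plin2 Osbpl2 (0.048), to Plin3 Pygb (0.082) and to Plin4 5031439G07Rik (0.068).

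Other genes of droplet biology gave no call either. Of 58 genes in 4 lists around the pathway, 54 were tested and 0 were called by limma as deposited or scaled. At an unadjusted limma p under 0.05, 12 were lower and 0 higher as deposited, and 4 lower and 6 higher after scaling. These counts are near the shares of all tested genes, 24.8% lower and 1.01% higher as deposited and 8.61% lower and 9.05% higher scaled. Scaled medians were 0.10 for 15 tested genes of droplet assembly and fusion, 0.19 for 9 lipolysis inhibitors and lipid carriers, -0.14 for 12 other lipid hydrolases and -0.046 for 18 genes of lipolytic signalling, against -0.0017 for all tested genes.

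In droplet assembly, Dgat1, which makes triglyceride from diglyceride, was at 166, 103 and 90.6 FPKM in knockout and 121, 97.3 and 88.6 FPKM in WT (scaled log2 fold change 0.52 ± 0.16 SE; limma adjusted p = 0.24). Tmem159, a partner of seipin, had a scaled value of 0.21 ± 0.10, Rab18, a droplet GTPase, of 0.36 ± 0.19 and Clstn3 of 0.38 ± 0.20. Cidea, the brown-fat relative of Cidec, was at 737 ± 84.3 FPKM in knockout and 879.9 ± 23.1 FPKM in WT (SD, n = 3 each), with a scaled log2 fold change of 0.072. Among carriers, the fatty acid binding protein Fabp4 was at 10439 ± 795 and 10065 ± 1332 FPKM and the caveolar protein Cav1 at 420.1 ± 20.8 and 387 ± 51.9 FPKM, with scaled values of 0.39 ± 0.11 and 0.46 ± 0.12 (limma adjusted p = 0.237 and 0.234). Cav2 had a scaled value of 0.59 ± 0.19 and the glycerol kinase Gyk of 0.53 ± 0.23. With GC and length correction the values were 0.20 for Cav2, 0.26 for Cav1, 0.34 for Gyk, 0.28 for Fabp4, 0.089 for Tmem159, 0.21 for Rab18, 0.57 for Clstn3 and 0.56 for Dgat1. Of inhibitors of Pnpla2, G0s2 was at 81.3, 48.5 and 24.2 FPKM in knockout and 54.6, 34.8 and 67.8 FPKM in WT, and Hilpda at 29.3, 33.3 and 36.1 FPKM in knockout and 100.6, 38.2 and 39.97 FPKM in WT. WT library 1 alone carried most of the Hilpda difference.

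Other lipid hydrolases included the lowest scaled values of the 4 lists. Pnpla3, a relative of Pnpla2, was at 5.70, 4.77 and 3.59 FPKM in knockout and 9.92, 6.54 and 11.4 FPKM in WT, without overlap (scaled log2 fold change -0.59 ± 0.20 SE; limma adjusted p = 0.246). Ddhd1, an intracellular phospholipase, was at 5.55, 4.29 and 4.55 FPKM in knockout and 9.19, 9.26 and 7.13 FPKM in WT, also without overlap (-0.46 ± 0.13; limma adjusted p = 0.237). The lysosomal lipase Lipa was at 17.4 ± 2.89 FPKM in knockout and 27.1 ± 7.08 FPKM in WT (SD, n = 3 each), and Pnpla6, a phospholipase, at 1.15 ± 0.257 and 2.03 ± 0.573 FPKM. After scaling, 6 of 12 tested genes of this list were lower in knockout without overlap. The counts were 0 of 15 in droplet assembly, 0 of 9 inhibitors and carriers and 1 of 18 in signalling. Higher without overlap were 1 of the 12 hydrolases, 2 of 15 in assembly, 2 of 9 inhibitors and carriers and 2 of 18 in signalling. At an unadjusted scaled limma p under 0.05, 3 of the 12 hydrolases were lower and 0 higher. Over the 4 lists 7 of 54 were lower and 7 higher without overlap, near the 12.5% and 12.9% of all tested genes. In lipolytic signalling, the protein kinase A regulatory subunits Prkar1a and Prkar2a had scaled log2 fold changes of 0.32 ± 0.084 and -0.28 ± 0.11, Prkar2b of 0.31 ± 0.17 and the adenylyl cyclase Adcy3 of 0.39 ± 0.11 (limma adjusted p from 0.234 to 0.365). GC and length correction gave 0.63 for Adcy3 and 0.21 for Prkar2b, and in the hydrolases -0.17 for Pnpla6 and -0.42 for Lipa.

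Some member values can include reads of other genes, since no source used here gives the strand setting. In the RefSeq annotation of GRCm38.p6, the noncoding gene 4732471J01Rik overlaps Lipe and was at 0.157 to 0.549 FPKM in knockout and 0.423 to 0.828 FPKM in WT. Hdgfl2, listed under its older name, overlaps Plin4 and was at 2.76 to 4.06 FPKM in knockout and 4.201 to 7.48 FPKM in WT. The pseudogene Gm12551 overlaps Plin2, and the noncoding genes Gm52871 and Gm26588 overlap Cidec and Mgll.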

How the data were processed

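PolyA RNA was sequenced from brown adipose tissue, 3 AdIl17rc KO and 3 WT libraries. The deposited values are FPKM, in 1 table made by the authors, with STAR 2.5.1b, Cufflinks 2.2.1, DESeq2 1.10.1 and build mm9 named in the submitters' processing notes. No source used here gives the annotation or strand setting. Of 24043 rows, 27 whose symbol had become a date were left out. Values were tested as log2(FPKM + 0.5) for 10864 genes with a mean of at least 0.5 FPKM, with limma 3.58.1 in R 4.3.3 (empirical Bayes with trend, two-sided, Benjamini-Hochberg over all tested genes, threshold 0.05), as deposited and after median-of-ratios scaling. Fold changes on this scale understate those of low genes. The test was also run on simulated data, with planted changes far larger than the differences of the members. That run does not gauge power for differences as small as theirs. GC and length correction used splines with 4 degrees of freedom, available for 99.4% of tested genes. Shares and ratios were compared by exact permutation tests. FPKM keeps no library totals, so depth is approximate, and the range searched for the value of 1 fragment was set beforehand. The members, lists and tests were chosen with earlier results of these data known. Named pathway genes were up to 4 per list with the smallest scaled limma p, with G0s2, Hilpda and Cidea added; for each member the gene nearest in pattern was named. Settings tried are given at the end.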

Additional observations from a re-analysis of the deposited data

How the results depend on the processing

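Counts of called lipid droplet genes and of other pathway genes were 0 under all alternatives run. Over all genes the count, 2 as reported, was 1 with no filter, 14 with robust empirical Bayes, 1 with a replicate block and 13 without both AdIl17rc KO libraries 1 and 2, and 3 to 77 leaving out 1 library each, the highest without knockout library 3. Scaled, it was 1 with a replicate block, also with GC and length correction, 8 without both knockout libraries and 1 to 36 leaving out 1 library (4, 4 and 7 without WT libraries 1, 2 and 3, 36 without knockout library 3). The labels do not say whether same-numbered libraries are pairs. Deviations of same-numbered libraries correlated at 0.10, -0.12 and -0.081, which with 3 libraries a group cannot settle it. With the replicate block no member was called. The smallest limma adjusted p of the members as deposited was then 0.0546, for Pnpla2, which had 0.541 scaled with the block. For Il17rc the block gave a limma adjusted p of 0.0519 as deposited. The Il17rc log2 fold change, -1.21 (adjusted p = 0.151), kept its sign, from -1.46 to -1.05 leaving out 1 library.

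Signs of small differences turned, and no cause was tested. Against the deposited scale, scaling gave 0.043 for Plin1, 0.083 for Plin5, 0.081 for Cidec and 0.29 for Abhd5, and GC and length correction 0.17, 0.16, 0.0997 and 0.21, and 0.14 for Mgll (0.14 with a replicate block). Abhd5 was at 0.16 with a common sum, 0.19 with quantile normalization and 0.093 without both knockout libraries. Scaled and without both, Plin1 was at -0.39, Plin2 at 0.054, Plin5 at -0.32, Clstn3 at -0.070 and G0s2 at -0.62. Leaving out 1 library, the log2 fold change ran from -0.52 to 0.0042 for Plin5 and -0.20 to 0.18 for Abhd5, and scaled from -0.13 to 0.26 for Plin1 (-0.0041 without knockout library 2), -0.12 to 0.062 for Plin2, -0.11 to 0.29 for Plin5, -0.22 to 0.097 for Mgll (0.026 without knockout library 2), -0.14 to 0.60 for G0s2 (-0.0068 without WT library 2) and -0.034 to 0.13 for Cidea. Differences in share, knockout minus WT in percentage points, ran from -0.886 to 2.80 for Plin1, -2.21 to 3.54 for Plin2 (-2.33 with GC and length correction) and -0.198 to 0.632 for Plin5. Log2 ratio differences ran from -0.35 to 0.19 for Plin2 over Plin1, -0.0030 to 0.12 for Plin5 over Plin1 (-0.014 corrected), -0.16 to 0.17 for Cidec over Plin1 (-0.072 corrected), -0.073 to 0.086 for Cidec over Cidea, -0.21 to 0.057 for Lipe over Pnpla2 and -0.027 to 0.24 for Mgll over Pnpla2. That of Abhd5 over Pnpla2 kept its sign (0.25 to 0.61).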
